A study of Saccharomyces cerevisiae with 19 samples.

Results

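The probes described here lie 20 to 30 kb from a chromosome end of the budding yeast Saccharomyces cerevisiae, 1043 of the 41480 chromosomal probes of the array (2.51%). A probe belongs here when its midpoint is at least 20 kb and less than 30 kb from an end of chromosomes 1 to 16. On the left side the distance is the midpoint itself, and on the right side it is the largest probe end of the chromosome minus the midpoint. The 1043 probes fall on 32 chromosome ends, called here by chromosome number with L for the left and R for the right end, so that 15L is the left end of chromosome 15. Each probe is 60 bp long and the median spacing is 260 bp. Of the 1043 probes, 932 (89.4%) were measured on all 19 arrays, against 36515 (88.0%) of all chromosomal probes. The right end of chromosome 8 has 2 such probes and was not tested, which leaves 31 ends. Most of these have 29 to 37 probes measured on every array, and the thinner ones are 1R with 6, 1L and 15L with 14 each and 9L with 19.

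Sir3 is a structural protein of yeast silent chromatin. It is brought to telomeres and to the silent mating loci HML and HMR together with Sir2, a histone deacetylase, and Sir4, and it binds deacetylated nucleosomes, so that the complex can spread along the chromosome. Dot1 methylates histone H3 in transcribed chromatin, and this methylation weakens the binding of Sir3. Nicotinamide inhibits Sir2, and silent chromatin is lost while it is present and re-forms after its removal. Subtelomeres are rich in gene families for sugar, iron, phosphate and sulfur uptake and for cell adhesion.

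Sir3 was immunoprecipitated from exponentially growing cells in rich glucose medium after fixation with 0.9% formaldehyde, and the precipitated DNA (Cy5) was hybridised against input DNA (Cy3). The design asks how far Sir3 reaches at several levels of Sir3, with more Sir2, with a Sir3 point mutant, and after release from nicotinamide with and without Dot1. The 19 arrays form 11 groups, 8 of 2 arrays and 3 of 1 array.

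All strains carry a RAP1 and GFP fusion. The wild type is strain yAT191, with adh4::URA3-4xUASG-(C1-3A)n together with ppr1Δ::HIS3, rap1::GFP-RAP1(LEU2) and ade2-1::ADE2. Strain yAT1254 has these alleles and sir3::GPD-SIR3(NAT), and yAT1256 has them with sir3::GPD-sir3-A2Q(NAT), a mutant in which residue 2 of Sir3 is changed. Strains yAT2627, yAT2629 and yAT2554 share ade2-1::ADE2, hmlΔ::HPH and rap1::RAP1-GFP(LEU2) and have the SIR3 gene under the promoter of ADH, of TEF or of GPD, marked with NAT (sir3::pADH-SIR3, sir3::pTEF-SIR3 and sir3::GPD-Sir3). Strain yAT1667 carries rap1::RAP1-GFP(LEU2), RDN1::ADE2 and sir2::GPD-SIR2(KanMX), and yAT1668 adds sir3::GPD-SIR3(NAT) to them. Strain yAT2476 carries rap1::GFP-RAP1(LEU2) and sir3::GPD-SIR3(NAT). The nicotinamide groups are yAT1254 and its derivative yAT3183 (dot1::KANMx added), both taken 8 h after a move from 5 mM nicotinamide to fresh medium. Strains yAT2554, yAT1667 and yAT2476 have 1 array each. The wild type therefore differs from the ADH, TEF and SIR2 strains in more than the SIR genes, whereas by the listed alleles it differs from yAT1254 and yAT1256 at SIR3 alone.

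Signal is given as the mean log2 ratio of precipitated over input DNA minus the median log2 ratio of the array, so a value of 1 is a 2-fold higher ratio than the array's median probe. A change shared by the whole genome cannot be seen on this scale. Probes more than 50 kb from every end had a scaled median absolute deviation of 0.268 to 0.552, depending on the array. Replicate arrays correlated over the 932 probes with r from 0.768 (A2Q) to 0.989 (yAT1254). The labels do not say that replicates came from separate cultures, so a p-value measures the spread among these arrays alone, and that spread may be technical. 3 ends are altered or special in some strains. HML lies on 3L and is deleted in the ADH and TEF strains and in yAT2554. HMR lies in the 20 to 30 kb window of 3R. The end of 7L was cut at ADH4 in the wild type, yAT1254, yAT1256 and both nicotinamide groups, so the window lies nearer to the true end there. Every right distance counts from the outermost probe, so right windows may lie farther from the true end than stated. At 10R the outermost probe lies well inside the last annotated gene of that end.

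In the wild type, Sir3 was low in the window at 30 of the 31 ends and high at 3R. The mean over the 31 ends was 0.32 ± 0.06 (SD, n = 2 arrays), between 0.92 ± 0.09 at 10 to 20 kb (28 ends) and 0.11 at 30 to 40 kb (32 ends). The end 3R read 3.41 and 3.58 on the wild-type arrays, and it was the 1 end above 1 on each. With the ADH promoter the mean was 0.31 ± 0.03 (SD, n = 2), and 3R was again the single end above 1. With the TEF promoter the mean was 1.16 ± 0.17 (SD, n = 2), and 14 and 13 ends lay above 1. The GPD strain yAT1254 had a mean of 1.21 ± 0.09 (SD, n = 2), with 12 ends above 1 on each array. The single arrays of the other GPD strains read 1.16 (yAT2554) and 1.13 (yAT2476). The 2 arrays of each of these groups lay above both wild-type arrays, but 2 arrays against 2 cannot give an exact two-sided permutation p below 0.333. Without 3L, 3R and 7L the means were 0.19 in the wild type, 1.07 with TEF and 1.05 in yAT1254 (28 ends).

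**Figure D1:**
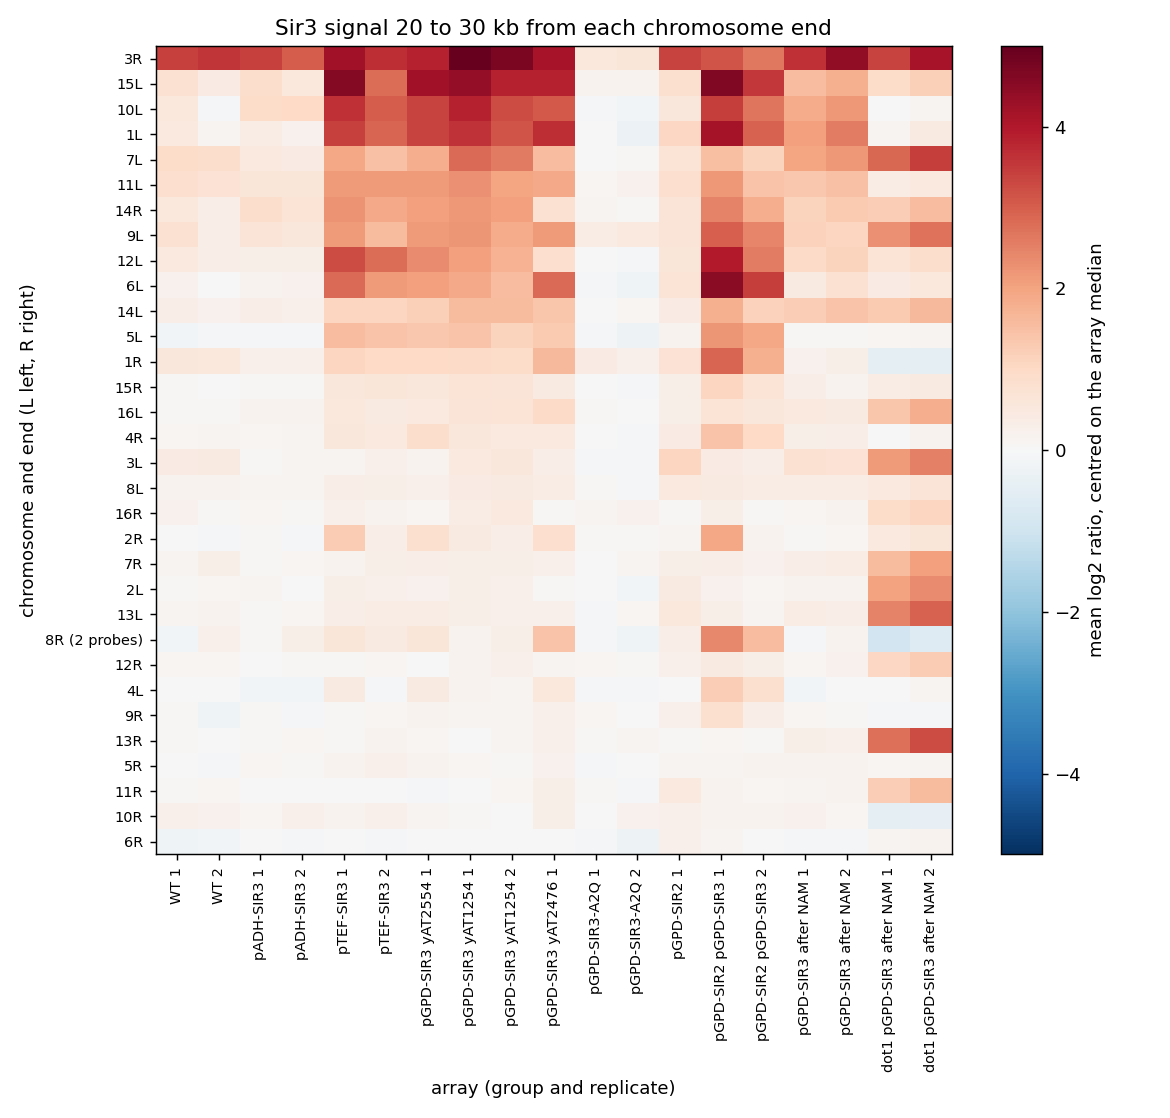
Colour gives the mean log2 ratio, centred on the array median, of the probes 20 to 30 kb from each chromosome end (rows) on each of the 19 arrays (columns, by group and replicate). The end 3R is high in all groups but A2Q, a set of left ends led by 15L, 1L and 10L is high with TEF and GPD, and 13L, 13R and 2L are high only on the dot1 arrays.

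Within the window the mean signal was lower farther from the end in the GPD strain and nearly level in dot1. In yAT1254 the mean over ends was 1.94 at 20 to 22 kb, 1.18 at 24 to 26 kb and 0.80 at 28 to 30 kb. The TEF strain ran through 1.82, 1.19 and 0.66 at the same distances, and the wild type through 0.62, 0.32 and 0.17. The dot1 arrays gave 1.23, 1.18 and 1.05. In the strain with SIR2 and SIR3 on GPD promoters the values were 1.79, 1.34 and 0.94, and A2Q stayed between -0.02 and 0.10 in every 2 kb step of the window.

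**Figure D2:**
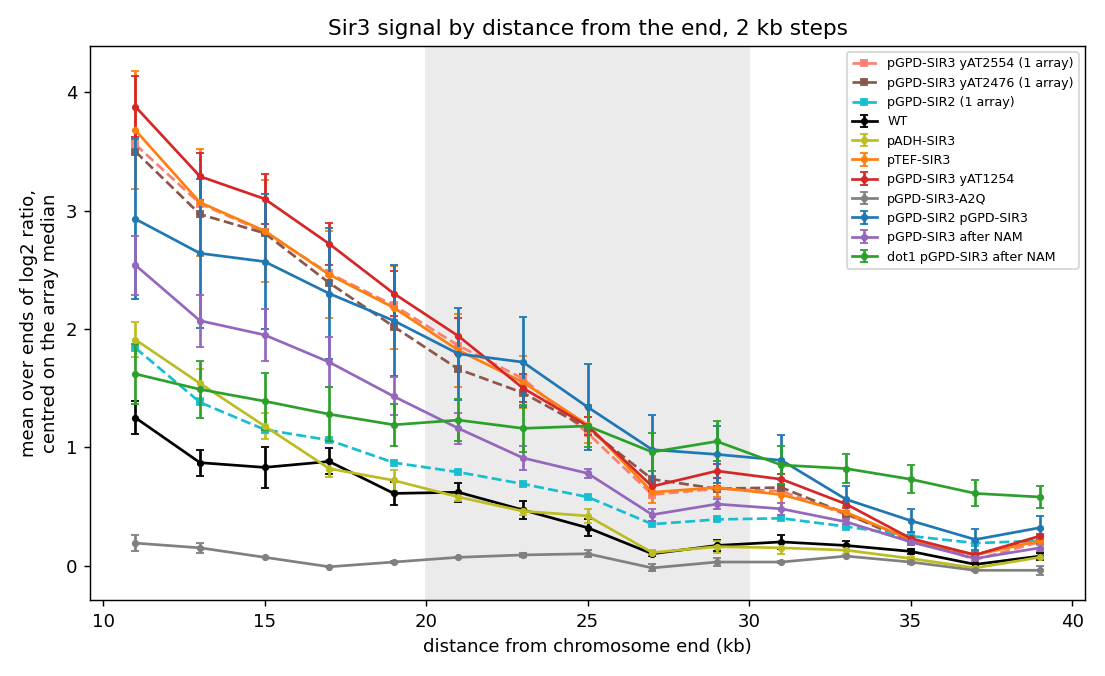
Mean log2 ratio over chromosome ends (vertical axis, centred on the array median) against distance from the end in 2 kb steps (horizontal axis), by group; error bars are the SD of 2 arrays, and dashed lines are groups of 1 array. The TEF and yAT1254 lines drop from 1.82 and 1.94 at 20 to 22 kb to 0.66 and 0.80 at 28 to 30 kb, while the dot1 line stays between 0.96 and 1.23.

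With the ADH promoter no window of the 31 passed limma's test against the wild type, while 1.83% of all 1200 windows of the genome did. At an unadjusted p under 0.05, 5 of the 31 differed, and 194 of the 1200. Of the 97 genes with at least 2 probes and a mean position at 20 to 30 kb, 2 rose, against 0.604% of all 3971 genes tested. YNR065C on 14R rose by 1.21 ± 0.24 (SE, limma adjusted p = 0.0404), and BMH1 on 5R, which encodes a 14-3-3 protein, rose by 0.83 ± 0.11 (limma adjusted p = 0.00144). YNR065C read 0.61 and 0.33 on the wild-type arrays and 2.11 and 1.25 on the ADH arrays. BMH1 also rose with TEF (1.15), and in yAT1254 it differed by 0.27 (limma adjusted p = 0.165). The ADH and TEF strains differ from the wild type in background as well. The count of genes rested on few arrays, since it was 7 without wild-type replicate 1 and 1 without ADH replicate 1. The fall of signal from 10 to 20 kb into 20 to 30 kb was larger than in the wild type at 9 of 28 ends and smaller at 2, and the mean fall was 0.82 against 0.61. Larger falls made up 13.9% of the 115 steps tested between neighbouring windows of the outer 50 kb. Of these steps, 59 lie at the borders of this window.

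With the TEF promoter 15 of the 31 windows rose over the wild type and none fell. Higher windows made up 21.4% of all windows, and the median difference was 0.42 over the 31 windows and 0.04 over all windows. The largest rise was at 10L, by 3.12 ± 0.30 (SE, limma adjusted p = 8.93e-05). The next were 15L (3.10 ± 0.49, limma adjusted p = 0.00113), 1L (2.83), 12L (2.62 ± 0.33, limma adjusted p = 0.000273) and 6L (2.34). All 5 are left ends, but left distances count from the start of the chromosome's coordinates and right distances from the outermost probe. Left and right windows are therefore not placed alike, and the sides were not compared. The 10 further windows rose by 0.26 (5R) to 1.65 (14R).

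The ADH arrays separate from the TEF arrays at the same ends, and by the listed alleles these strains differ in the promoter alone. From ADH to TEF 13 of the 31 windows rose and none fell, against 9.58% of all windows that rose. The median difference was 0.40, and 0.02 over all windows. At 15L the ADH arrays read 0.89 and 0.52 and the TEF arrays 4.58 and 2.80. At 12L the ADH arrays both read 0.28 and the TEF arrays 3.27 and 2.78. The differences were 2.99 ± 0.49 at 15L (limma adjusted p = 0.00331) and 2.75 ± 0.33 at 12L (limma adjusted p = 0.000548), with 2.85 at 1L, 2.39 at 10L and 2.26 at 6L. Within the first deposit the mean difference over ends was 0.94 and within the later deposit 0.75, against 0.85 pooled. All 13 windows kept their direction in both deposits.

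In the GPD strain yAT1254 17 of the 31 windows rose over the wild type, while 16.2% of all windows rose. The median difference was 0.40 over the 31 windows and 0.02 over all windows. On the left end of chromosome 15 (positions 20253 to 29953 as the files give them, build not stated) the wild-type arrays read 0.76 and 0.42 and the yAT1254 arrays 4.38 and 3.83. The difference of 3.51 ± 0.49 was the largest of the 31 (limma adjusted p = 0.000512). At 10L (positions 21118 to 29970) the wild type read 0.51 and -0.05 and yAT1254 3.85 and 3.25, a difference of 3.32 ± 0.30 (limma adjusted p = 3.2e-05). At 1L (positions 21406 to 29885) the values were 0.50 and 0.14 against 3.63 and 3.16, a difference of 3.08 ± 0.34 (limma adjusted p = 0.000125). At these 3 ends the groups do not overlap and the wild type lies below 1. The truncated end 7L rose by 1.82 ± 0.20 (limma adjusted p = 0.0001) and 14R by 1.68 ± 0.19 (limma adjusted p = 0.000129).

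At other ends the same strain read close to the wild type. The 5 smallest absolute differences were at 11R (-0.04), 13R (0.05), 7R (0.09), 3L (0.10) and 5R (0.11), with limma adjusted p from 0.091 to 0.835. At 13R (positions 894462 to 904227) the wild type read 0.05 and -0.01, TEF 0.05 and 0.19, yAT1254 0.01 and 0.13, yAT2554 0.09 and yAT2476 0.24. No group except dot1 stood above 0.31 there. Of the 17 windows that rose, the smallest differences were 0.25 at 8L and 0.28 at 16R (limma adjusted p = 0.0457). The window of HMR, 3R, rose from 3.41 and 3.58 to 5.02 and 4.70, by 1.37 (limma adjusted p = 0.0105), whereas TEF read 4.20 and 3.68 there and did not pass the test (0.45, limma adjusted p = 0.321).

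The step in signal across each border of the window was steeper than in the wild type at many ends. In yAT1254 the fall from 10 to 20 kb into the window was larger at 19 of 28 ends and smaller at 2, and the fall from the window into 30 to 40 kb was larger at 16 of 31 ends and smaller at 2. Larger falls made up 47.0% of the 115 steps. The mean falls were 1.86 and 0.85, against 0.61 and 0.21 in the wild type. In the TEF strain the falls were larger at 17 of 28 and 15 of 31 ends, against 44.3% of all 115 steps, with means of 1.67 and 0.84.

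Single ends differed in where the fall lay. At 10L yAT1254 read 5.72 in the bin of 1 kb that starts at 21 kb, 4.25 at 24 kb, 2.28 at 26 kb and 1.21 at 27 kb. At 6L it read 4.08 at 20 kb, 3.11 at 22 kb and 0.53 at 24 kb. At 12L it read 3.14 at 22 kb and 1.04 at 26 kb. At 15L it stood at 4.74 at 20 kb and still at 4.16 at 25 kb. So the signal at 6L was below 1 by 24 kb, while at 15L it was still above 4 at 25 kb. Beyond the window at 6L, a peak at 32 kb stood at 2.65 in the wild type and 3.59 in yAT1254.

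**Figure D3:**
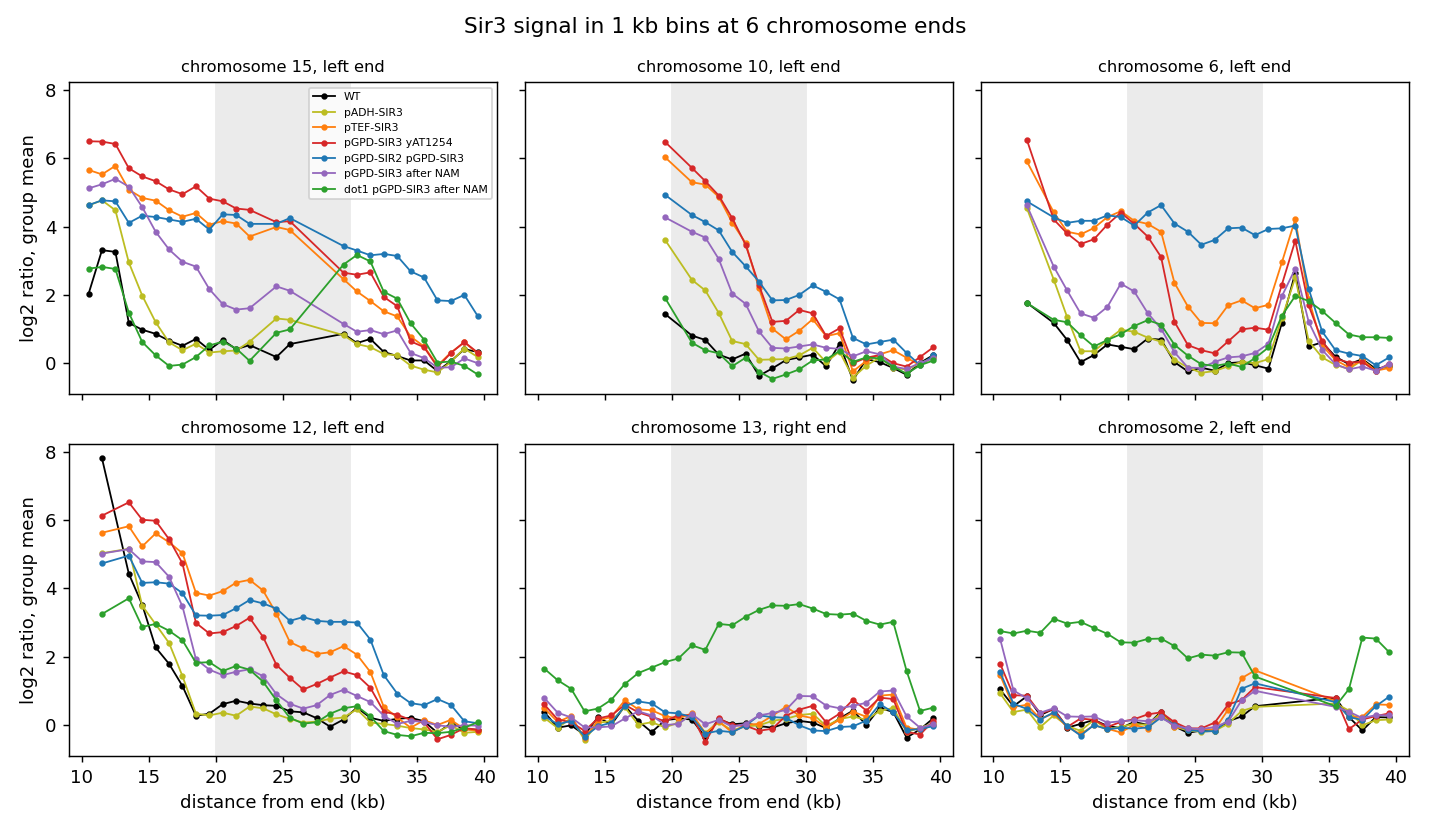
Group mean log2 ratio (vertical axis, centred on the array median) in 1 kb bins against the distance from the end in kb (horizontal axis) at 6 ends, with the 20 to 30 kb window shaded. At 6L the yAT1254 line drops from 4.08 to 0.53 between the bins at 20 and 24 kb while the SIR2 and SIR3 line stays between 3.47 and 4.63, and at 13R and 2L only the dot1 line is high throughout the window.

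A bin of 1 kb counted as covered when it exceeded, by 3 scaled median absolute deviations, the median bin of the chromosome interior (beyond 50 kb). Of the 292 bins of the window, 29.5 ± 4.9 were covered in the wild type and 36.5 ± 2.1 with ADH (SD, n = 2 arrays). TEF covered 109 ± 15.6 and yAT1254 117.5 ± 9.2, and the single arrays of yAT2554 and yAT2476 covered 116 and 106. SIR2 and SIR3 together covered 129 ± 25.5, SIR2 alone 71 on its array and A2Q 7.5 ± 0.7. After nicotinamide 74 ± 14.1 bins were covered, and 102 ± 15.6 in dot1. The threshold stood at 1.51 and 1.53 on the log2 scale for the dot1 arrays and at 0.63 to 0.92 for the others. At 12L all 10 bins were covered with TEF, in yAT1254 and with SIR2 and SIR3, whereas at 6L yAT1254 covered 6.0 of the 10.

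In all groups but A2Q, the level at 20 to 30 kb went with the level next to it. Over the 28 ends with both windows, Pearson's r between the 10 to 20 kb and the 20 to 30 kb levels was 0.69 in yAT1254, 0.72 with TEF and 0.37 in the wild type. It was 0.45 with SIR2 alone and -0.1 with A2Q. The points share an array and neighbouring probes, so these are descriptions. For 15L, which had the largest rise in yAT1254, the windows with the most similar course over the 11 group means were 6L at 10 to 20 kb (r = 0.986), 1L at 10 to 20 kb (r = 0.974) and 1L at 30 to 40 kb (r = 0.973).

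Counted by gene, with TEF 30 of the 97 genes rose over the wild type and 1 fell, against 7.63% higher and 0.907% lower of all genes. In yAT1254 28 rose and none fell, against 6.27% higher. From ADH to TEF 23 rose, against 3.63% higher. The 28 genes of yAT1254 lie on 17 ends, and all 4 measured genes of 14R and 4 of the 5 of 7L are among them. None of the 6 genes of 13R, the 5 of 13L, the 5 of 9R or the 5 of 10R rose.

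Of the iron uptake list, 4 genes lie here, and all 4 rose in yAT1254 (median difference 0.81) and 3 with TEF. ENB1 (YOL158C, chromosome 15, probes from 19664 to 21033, mean distance 20.3 kb) encodes a siderophore transporter. It read 0.86 and 0.38 in the wild type, 0.46 and 0.38 with ADH, 5.12 and 3.25 with TEF, 4.69 in yAT2554, 5.09 and 4.47 in yAT1254 and 4.37 in yAT2476. The TEF and GPD arrays lay above every wild-type and ADH array. Its rise was 3.57 ± 0.46 with TEF (limma adjusted p = 0.00026) and 4.16 ± 0.46 in yAT1254 (limma adjusted p = 6.54e-05). FIT1, a cell wall protein for siderophore retention on 4R, rose by 1.04 in yAT1254. FRE3, a ferric reductase on 15R, rose by 0.58 (limma adjusted p = 0.0361), and SIT1, another siderophore transporter on 5L, by 0.27 (limma adjusted p = 0.0447).

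Both sugar genes of the window lie on 10L and rose. IMA5 (YJL216C, chromosome 10, probes from 24555 to 25619, 25.2 kb), an isomaltase gene, read 0.51 and -0.07 in the wild type, 0.44 and 0.67 with ADH, 3.95 and 3.52 with TEF, 3.49 in yAT2554 and 4.09 and 3.39 in yAT1254. It rose by 3.52 ± 0.26 in both strains (limma adjusted p = 5.19e-06 with TEF and 3.1e-06 in yAT1254). HXT8, a hexose transporter gene 27.5 kb from the end, read -0.13 and -0.17 in the wild type and 1.52 and 0.89 in yAT1254, and rose by 1.36. Probes of HXT8 and of the flocculin genes can cross-hybridise to related family members, which was not tested.

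Among sulfur and metal genes 2 of 5 rose in yAT1254 and 3 of 5 with TEF. ZRT1, the high-affinity zinc transporter gene (YGL255W, chromosome 7, probes from 21200 to 21809), read 2.04 and 1.63 in the wild type, 0.72 and 0.66 with ADH, 4.77 and 3.37 with TEF and 6.26 and 5.79 in yAT1254. FZF1, the activator of the sulfite pump gene on the same end, read 1.20 and 0.77 in the wild type and 5.56 and 4.91 in yAT1254. ZRT1 rose by 4.19 ± 0.42 and FZF1 by 4.25 ± 0.39 in yAT1254 (limma adjusted p = 2.93e-05 and 1.24e-05), and by 2.23 and 2.22 with TEF. Both lie on the end that is truncated in the wild type and yAT1254 and intact in the TEF strain. HXK2 next to them, the main hexokinase gene, rose by 1.06 in yAT1254, and RTG2, a mitochondrial signalling gene 26.6 kb from the probe end, differed by 0.20 (limma adjusted p = 0.459).

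Genes outside the lists rose as well. JEN1 (YKL217W on 11L), the lactate permease gene, read 1.23 and 0.67 in the wild type, 4.12 and 4.04 with TEF and 4.40 and 3.80 in yAT1254. AQY3 (YFL054C on 6L), which encodes an aquaglyceroporin-like protein, read 0.78 and 0.53 in the wild type, 4.31 and 3.61 with TEF and 3.71 and 3.18 in yAT1254. HSU1 (YLL058W on 12L), an enzyme of sulfide assimilation, read 0.76 and 0.29 in the wild type, 3.64 and 3.32 with TEF and 2.05 and 1.81 in yAT1254. JEN1 rose by 3.13 ± 0.33 and AQY3 by 3.31 ± 0.27 with TEF (limma adjusted p = 4.37e-05 and 7.04e-06), HSU1 by 2.95 ± 0.30 and YNR068C on 14R by 3.54 ± 0.28. In yAT1254 the rises were 3.15 for JEN1, 2.79 for AQY3 and 2.91 for YNR068C, with 3.00 for OCA4 beside HMR. EGT2 on 14L, a cell wall protein of daughter cell separation, rose by 2.55.

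The remaining lists were small. FLO9, a flocculin gene on 1L, rose by 2.35 in yAT1254 (limma adjusted p = 0.0012), and FLO1 on 1R differed by 0.91 (limma adjusted p = 0.0586). With TEF both flocculin genes rose. The phosphate transporter gene PHO84 on 13L differed by 0.81 in yAT1254 and did not pass. The lists of thiamine and aryl-alcohol genes had no measured gene here. None of the 3 allantoin genes on 9R passed in either strain (median difference 0.26 in yAT1254). The single fall with TEF was at MRC1, a replication checkpoint gene on 3L, by 0.48 on the log2 scale (limma adjusted p = 0.00985). HML, on the same end, is deleted in that strain.

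**Figure D4:**
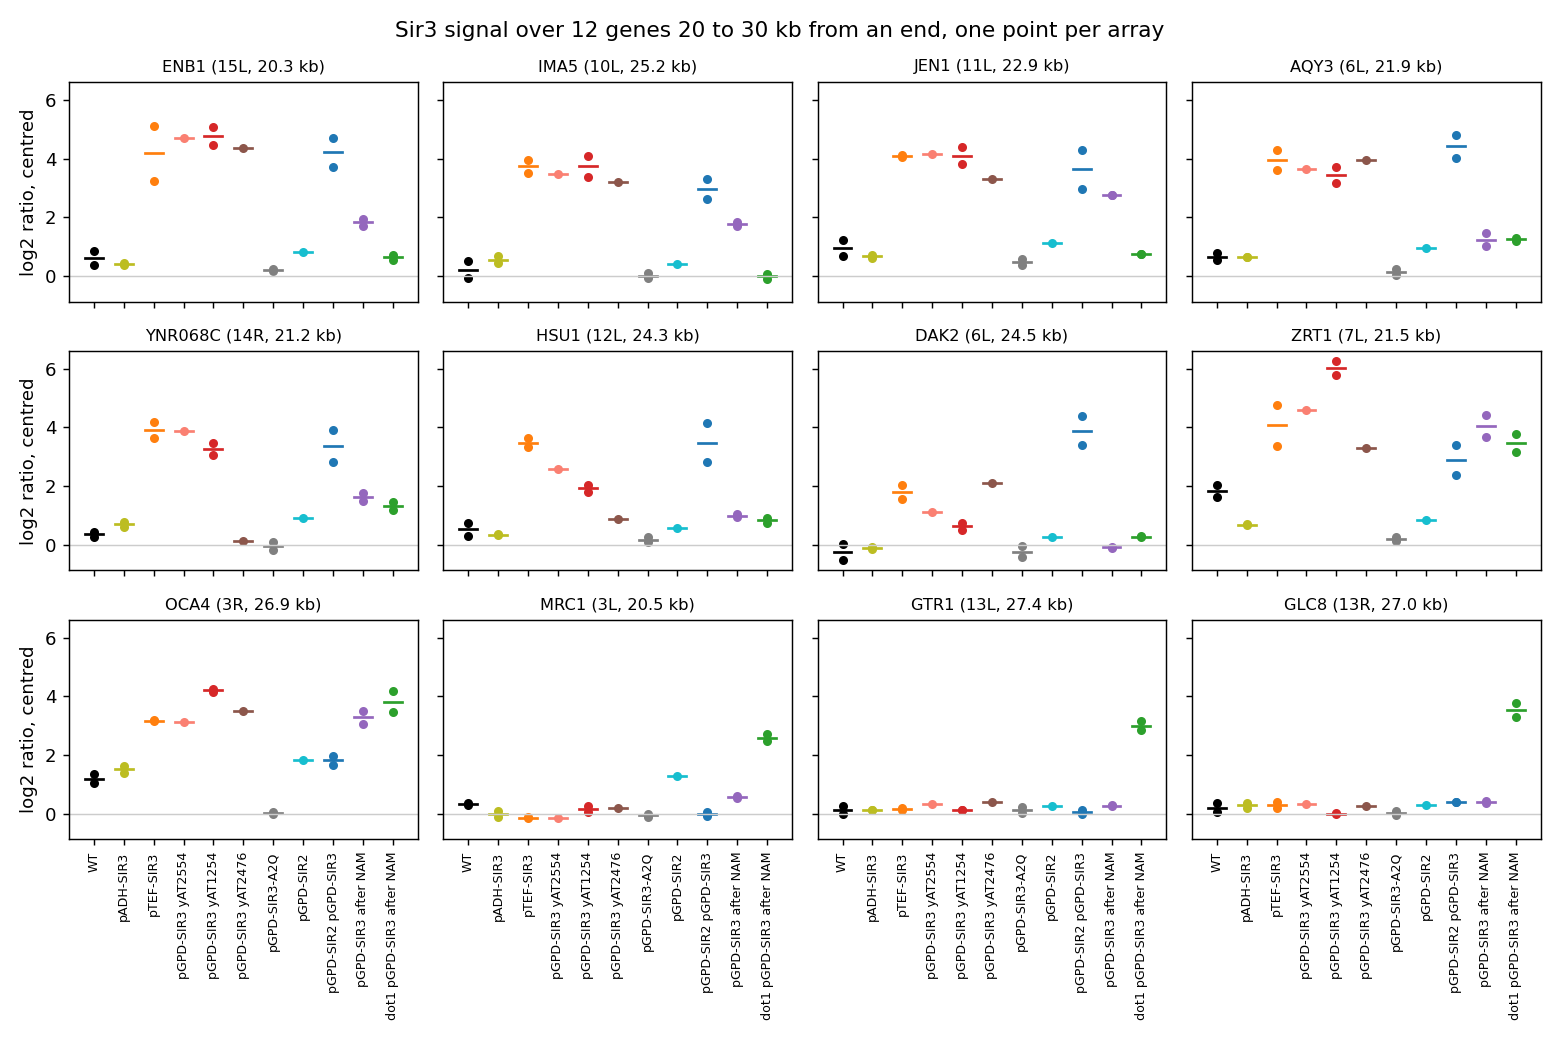
Centred log2 ratio (vertical axis) over 12 genes 20 to 30 kb from an end, with a point per array and a bar at each group mean, by group (horizontal axis). ENB1, IMA5, JEN1, AQY3 and YNR068C stand above 3 on the TEF and yAT1254 arrays and below 1.3 in the wild type, and GTR1 and GLC8 stand above 2.8 on the dot1 arrays alone.

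Between the TEF and the GPD strain of the same background, yAT2554, none of the 31 windows and none of the 97 genes passed limma's test, and 0.0% of all windows and of all genes did. At an unadjusted p under 0.05, 1 of the 31 windows and 17 of the 1200 differed, and 6 of the 97 genes and 49 of the 3971. The GPD side is 1 array, assumed to vary as the other groups do. The mean over the 31 ends was 1.16 in each, and 12 ends lay above 1 on the yAT2554 array. At 15L TEF read 4.58 and 2.80 and yAT2554 4.19. At 12L TEF read 3.27 and 2.78 and yAT2554 2.38.

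The GPD strain yAT2476, of another background, was not tested against yAT1254. It read 0.83 at 12L and 0.77 at 14R, below the 2.07 and 1.75 (12L) and the 2.16 and 2.05 (14R) of yAT1254. On 14R it stood at 0.13 over YNR068C but at 2.64 over YNR065C, which lies 29.2 kb from the end. At 1L and 15L it read 3.71 and 3.85, near the other GPD strains.

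Mean Sir3 signal was higher between genes than inside them in every group except dot1 and A2Q. Of the probes measured on all arrays, 481 lie inside a single gene and 190 between genes. In yAT1254 the mean was 0.82 ± 0.04 inside and 1.76 ± 0.14 between genes (SD, n = 2 arrays), and with TEF it was 0.72 ± 0.08 and 1.77 ± 0.27. The wild type had 0.21 ± 0.11 and 0.58 ± 0.06. In dot1 the means were 1.18 ± 0.16 inside and 1.10 ± 0.22 between. Taken within each of the 25 ends with at least 3 probes of each kind, the mean difference of between minus inside was 0.53 ± 0.04 in yAT1254 (above 0 at 16 ends) and 0.49 ± 0.14 after nicotinamide (18 ends). It was 0.18 ± 0.21 in the wild type (15 ends) and 0.17 with ADH (11 ends). The ends were split in each of these groups, also in yAT1254. In dot1 the mean difference was -0.08 ± 0.04 (10 ends), and for A2Q it was -0.28 ± 0.05 (3 ends). No test across arrays was run on these means.

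The A2Q mutant, expressed from the GPD promoter, left almost no signal in the window. Its mean over the 31 ends was 0.05 ± 0.02 (SD, n = 2), and its highest end, 3R, read 0.54 and 0.59. Against yAT1254, which by the listed alleles differs in SIR3 alone, 19 of the 31 windows were lower and none higher, while 20.8% of all windows were lower. The median difference was -0.60 over the 31 windows and 0.01 over all. The window 3R, at 5.02 and 4.70 in yAT1254, was lower by 4.30 ± 0.31 on the log2 scale (difference -4.30, limma adjusted p = 2.42e-06). The differences were -3.94 ± 0.49 at 15L (limma adjusted p = 0.000115), -3.65 ± 0.30 at 10L (limma adjusted p = 4.43e-06), -3.53 at 1L and -2.68 at 7L. Of the 97 genes 34 were lower, against 7.4% of all genes. ZRT1, at 0.13 and 0.27 with A2Q, had the largest difference (-5.83 ± 0.42, limma adjusted p = 7.28e-07), followed by FZF1 (-5.53), ENB1 (-4.59) and OCA4 (-4.17). Both sugar genes, 3 of 4 iron genes, 1 of 2 flocculin genes, 2 of 5 sulfur and metal genes and PHO84 (-0.92, limma adjusted p = 0.0272) were lower. Of all called windows 30.2% were higher with A2Q, and 17.7% when arrays were centred on probes beyond 50 kb.

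Against the wild type, 5.25% of all windows were lower with A2Q, and 4 of the 31 windows here were lower. These were 3R (-2.93 ± 0.31, limma adjusted p = 0.00027), 7L (-0.86 ± 0.20, limma adjusted p = 0.0242), 3L (-0.49 ± 0.10, limma adjusted p = 0.0113) and 8L (-0.20 ± 0.05, limma adjusted p = 0.0426). The first 3 are the ends with a silent mating locus or a truncation. At 7L the wild-type arrays read 0.92 and 0.88 and the A2Q arrays 0.03 and 0.07, and at 3L 0.41 and 0.43 against -0.05 and -0.10. Of the 97 genes 4 were lower (1.01% of all genes), namely OCA4 (-1.17 ± 0.21, limma adjusted p = 0.0176) and CDC50 (-1.15), both beside HMR, HFM1 on 7L (-0.72) and KAR4 on 3L (-0.65). CDC50 encodes a lipid flippase subunit, HFM1 a meiotic helicase and KAR4 a transcription factor of mating. The window count was 2 without wild-type replicate 1 and 1 without wild-type replicate 2 or A2Q replicate 2. The gene count was 8 without wild-type replicate 1, 2 without wild-type replicate 2, 0 without A2Q replicate 1 and 1 without A2Q replicate 2. With slide as a block no window passed. Of all called windows 46.2% were higher with A2Q, 32.5% when centred on probes beyond 50 kb and 64.5% when arrays were scaled by their spread.

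SIR2 on the GPD promoter without extra Sir3 gave a mean of 0.55 over the 31 ends on its single array, and 3 ends above 1. Against the wild type 3 of the 31 windows rose, while 3.25% of all windows did. The SIR2 side is a single array whose spread is taken from the other groups. At 3L, where the wild type read 0.41 and 0.43, the SIR2 array read 1.09 (difference 0.67 ± 0.12, limma adjusted p = 0.0123), and 9 of the 10 bins were covered against 0.5 on average in the wild type. At 6R the wild type read -0.22 and -0.13 and SIR2 0.27 (0.44 ± 0.07, limma adjusted p = 0.0113), and at 8L 0.19 and 0.16 against 0.47 (0.30 ± 0.07, limma adjusted p = 0.0292). Of the 97 genes 4 rose (1.03% of all genes). MRC1 on 3L, at 0.30 and 0.36 in the wild type and 1.29 with SIR2, rose by 0.95 ± 0.12 (limma adjusted p = 0.00298). DUG1, a dipeptidase gene of glutathione breakdown on 6R, rose by 0.60, BMH1 by 0.59 and YJR149W by 0.52. The gene count was 8 without wild-type replicate 2, and the window count 0 with slide as a block. The labels list no HML deletion in either strain, and they differ in more than SIR2.

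The strain with SIR2 and SIR3 both on GPD promoters differed from yAT1254 at single ends in both directions. Against yAT1254, 8 windows were higher and 2 lower, while 20.7% of all windows were higher and 14.8% lower, so neither share stands out from the genome. The strains also differ in background. At 6L yAT1254 read 1.89 and 1.55, SIR2 and SIR3 4.52 and 3.44 and the other GPD strain yAT2476 2.82. The difference at 6L was 2.25 ± 0.31 (limma adjusted p = 0.00044), and the signal stayed at 3.47 or above in every 1 kb bin of that window, where yAT1254 had dropped to 0.53 by 24 kb. The other 4 of the largest rises were at 1R (1.40 ± 0.25, limma adjusted p = 0.00199), 12L (1.35), 4L (0.87) and 5L (0.81). At 4L yAT1254 read 0.18 and 0.13 and SIR2 and SIR3 1.23 and 0.82, and at 5L 1.44 and 1.10 against 2.22 and 1.93. The 2 lower windows were 3R (-1.97 ± 0.31, limma adjusted p = 0.000749), at 3.16 and 2.62, and 7L (-1.41 ± 0.20, limma adjusted p = 0.000475), at 1.5 and 1.12. The end 7L is truncated in yAT1254 and not in this strain. With yAT2476 as the reference 6 windows passed in place of 10, and 3 with slide as a block. Within the first deposit the mean difference over ends was 0.41, against 0.16 pooled, and all 10 windows kept their direction.

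Of the 97 genes 19 were higher with SIR2 and SIR3 than in yAT1254 and 8 lower, against 6.75% and 6.5% of all genes. The gene count of 27 was 17 without yAT1254 replicate 1 and 12 without replicate 2. DAK2, a dihydroxyacetone kinase gene on 6L, read 0.76 and 0.52 in yAT1254 and 4.38 and 3.40 here, a rise of 3.25 ± 0.27 (limma adjusted p = 1.91e-05). ZNF1, a regulator of non-fermentable carbon use 29.0 kb from the same end, read 1.31 and 1.03 against 4.46 and 3.37 and rose by 2.75. YAL063C-A on 1L rose by 2.44, and JLP1 on 12L, a sulfonate dioxygenase gene, by 2.11. The allantoin genes DAL4 and DAL2 on 9R rose by 1.16 and 1.13, but their arrays differed, with DAL4 at 1.96 and 1.03 and DAL2 at 1.80 and 0.58. The iron gene FIT1 rose by 0.87. ZRT1 (-3.15), FZF1 (-2.95), OCA4 (-2.37) and CDC50 (-1.84) were lower and lie on 7L and 3R. Lower genes on other ends were YNR065C on 14R (-0.93, limma adjusted p = 0.0261) and EGT2 on 14L (-0.81, limma adjusted p = 0.0173).

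After release from nicotinamide, Sir3 in yAT1254 had a mean over ends of 0.75 ± 0.07 (SD, n = 2), below the 1.21 ± 0.09 of steady growth, and 9 and 10 ends lay above 1. Of the 31 windows 11 were lower and none higher, against 10.2% of all windows that were lower. The median difference was -0.27 and 0.01 over all windows. The nicotinamide arrays all belong to the later deposit and the steady arrays to the first, so deposit and treatment cannot be told apart except through groups present in both. With deposit as a block, bridged by those groups, 1 of the 11 windows passed, and with slide as a block 0. Slides were read for the first deposit alone, so the slide block does not rest on known slides of the nicotinamide arrays. The window count was 1 without nicotinamide replicate 1, 1 without yAT1254 replicate 1 and 6 without yAT1254 replicate 2.

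The window that passed with the deposit block was 5L. It read 1.44 and 1.10 in steady growth and 0.05 and 0.07 after release, a difference of -1.21 ± 0.11 (limma adjusted p = 0.000593), or -1.07 with the deposit block (limma adjusted p = 0.0143). At 15L the values were 4.38 and 3.83 against 1.56 and 1.79, a difference of -2.43 ± 0.49 (limma adjusted p = 0.00952), and -1.35 with the block (limma adjusted p = 0.0726). At 10L they were 3.85 and 3.25 against 1.87 and 2.15, a difference of -1.54 (limma adjusted p = 0.00853), and -1.09 with the block (limma adjusted p = 0.0929). The differences at 6L (-1.11) and 1L (-1.08) became -0.53 and -0.47 with the block (limma adjusted p = 0.294 and 0.445). With slide as a block the differences were -0.92 at 15L, -0.56 at 10L and -0.11 at 1L (limma adjusted p = 0.463, 0.463 and 0.942). The nicotinamide arrays lay above both wild-type arrays at 15L, 10L and 1L.

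Of the 97 genes 20 were lower after release and 4 higher, against 4.46% and 2.85% of all genes, and 6 passed with the deposit block. The gene count of 24 was 2 without nicotinamide replicate 1, 6 without nicotinamide replicate 2, 3 without yAT1254 replicate 1 and 9 without yAT1254 replicate 2. ENB1 read 1.72 and 1.94 (difference -2.96 ± 0.46, limma adjusted p = 0.0047), AQY3 1.01 and 1.47 (-2.20), ZRT1 was lower by -1.98 and IMA5 read 1.72 and 1.85 (-1.95). The genes that were higher were RPS4A (0.59, limma adjusted p = 0.0479), PRE5 (0.56), BMH1 (0.41) and MRC1 (0.39). With the slide block BMH1 stood at -0.04. The fall of signal from 10 to 20 kb into the window was smaller than in steady growth at 12 of 28 ends, and from the window inward at 13 of 31. Smaller falls made up 36.5% of all 115 steps, and 59 of these are the steps at the window's own borders, so the shares are not independent. The count of changed steps at both borders, 29, was 7 with the deposit block, 3 with the slide block, 13 without nicotinamide replicate 1 and 9 without yAT1254 replicate 1.

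In dot1 cells Sir3 was high at some of the ends where the DOT1 cells, yAT1254 after nicotinamide, had little. Other ends were low in DOT1 and dot1 cells alike, such as 5L (0.06 and 0.12) and 4L (-0.08 and 0.09). Both groups of this comparison lie in the later deposit, carry GPD-SIR3 and were taken 8 h after nicotinamide. In dot1 13 of the 31 windows were higher and 5 lower than in DOT1 cells. Higher windows made up 32.6% of the genome and lower ones 38.0%, so most of the genome differed and the share of higher windows lies near the background. At 13R (positions 894462 to 904227) the DOT1 arrays read 0.31 and 0.24 and the dot1 arrays 2.76 and 3.28, a difference of 2.75 ± 0.12 (limma adjusted p = 1.62e-08). At 13L (positions 20203 to 29901) they read 0.36 and 0.34 against 2.48 and 2.96 (2.37 ± 0.12, limma adjusted p = 5.05e-08). At 2L (positions 20086 to 29659) they read 0.17 and 0.18 against 2.0 and 2.35 (2.0 ± 0.09, limma adjusted p = 1.62e-08). At all 3 ends every other array of the series lay at or below 0.54. The end 3L rose from 0.77 and 0.71 to 2.14 and 2.53 (1.59 ± 0.10, limma adjusted p = 1.38e-07) and 7R by 1.48 ± 0.12 (limma adjusted p = 1.39e-06). The other rises ran from 0.20 (6R and 8L) to 1.40 (9L).

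The 5 lower windows were 1L, 10L, 11L, 1R and 10R. At 1L the DOT1 arrays read 2.06 and 2.56 and the dot1 arrays 0.13 and 0.45 (-2.02 ± 0.34, limma adjusted p = 0.000339). At 10L they read 1.87 and 2.15 against -0.02 and 0.15 (-1.94 ± 0.30, limma adjusted p = 0.00015), and at 11L 1.35 and 1.45 against 0.36 and 0.47 (-0.99 ± 0.18, limma adjusted p = 0.000601). The dot1 arrays overlapped the wild-type arrays at 1L and 10L. At 1R the difference was -0.70 (limma adjusted p = 0.0281) and at 10R -0.57 (limma adjusted p = 2.67e-05), where the dot1 arrays read -0.45 and -0.40. The HMR window 3R read 3.65 and 4.43 in DOT1 cells and 3.38 and 4.11 in dot1 (-0.29, limma adjusted p = 0.41). The truncated end 7L rose by 1.11 ± 0.20 (limma adjusted p = 0.000453). In units of the spread of each array's probes beyond 50 kb, its difference turned to -1.21. That spread was widest on the dot1 arrays.

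In dot1 49 of the 97 genes were higher and 13 lower, against 28.3% and 22.9% of all genes. All 6 measured genes of 13R, all 5 of 13L, all 4 of 7R and all 4 of 16R were higher. NDI1 on 13L, the internal NADH dehydrogenase of mitochondria (YML120C, chromosome 13, probes from 28459 to 29623), read 0.14 and 0.08 in DOT1 cells and 3.11 and 3.57 in dot1, a difference of 3.23 ± 0.13 (limma adjusted p = 4.89e-09). GLC8 on 13R, a regulator of protein phosphatase 1 (YMR311C, chromosome 13, probes from 897158 to 897477), read 0.43 and 0.37 against 3.30 and 3.77 (3.14 ± 0.14, limma adjusted p = 5.46e-09). ELP6 next to it, an Elongator subunit gene, read 0.08 and -0.17 against 2.81 and 3.34 and rose by 3.12. GTR1 on 13L, a GTPase of the TORC1 pathway, rose by 2.73 ± 0.12.

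Genes on further ends rose as well. RTG3 on 2L, a transcription factor of mitochondrial signalling, rose by 2.30 and MRC1 on 3L by 2.04. SIR1 on 11R, which itself serves silencing at the mating loci, read 0.28 and 0.28 in DOT1 cells and 1.61 and 1.91 in dot1, a rise of 1.48. PHO84 rose by 1.44, the S-adenosylmethionine permease gene SAM3 on 16L by 1.30 and SAM4, a homocysteine methyltransferase gene beside it, by 1.22. OCA4 rose by 0.54 (limma adjusted p = 0.0481). With arrays divided by their spread, its difference turned to -4.22 in units of that spread.

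Of the 8 genes named for their rise in yAT1254, 3 fell in dot1 (ENB1, IMA5 and JEN1), OCA4 rose as above and 4 did not pass: FZF1 (-0.10), ZRT1 (-0.56), AQY3 (0.00) and YNR068C (-0.32). JEN1 fell from 2.75 and 2.75 to 0.74 and 0.76 (-2.00 ± 0.33, limma adjusted p = 0.000269). IMA5 fell from 1.72 and 1.85 to -0.09 and 0.07 (-1.79, limma adjusted p = 0.000112). ENB1 fell from 1.72 and 1.94 to 0.56 and 0.72 (-1.19, limma adjusted p = 0.0474) and FLO9 by 1.13 on the log2 scale. By list, both sugar genes, both flocculin genes and 1 of 4 iron genes fell, none of these rose, and PHO84 and 2 of 5 sulfur and metal genes rose. RPS4A on 10R, a ribosomal protein gene, fell by 0.95 on the log2 scale.

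In dot1 the fall from 10 to 20 kb into the window was smaller than in DOT1 cells at 19 of 28 ends and larger at 2, and the fall into 30 to 40 kb was smaller at 12 of 31 and larger at 5. Of all 115 steps 43.5% were smaller and 21.7% larger. The mean falls in dot1 were 0.28 and 0.30, against 1.21 and 0.49 in DOT1 cells. The level at 30 to 40 kb was 0.75 ± 0.12 in dot1 and 0.25 ± 0.03 in DOT1 cells (SD, n = 2 arrays). The inner step became larger at 9L (1.30), 7R (1.17), 13R (0.81), 16R (0.79) and 2L (0.40).

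The rises with GPD-SIR3 and those in dot1 can be set side by side, and the comparisons share no array. They are not independent, since yAT1254 is the group side of the first and, after nicotinamide, the reference side of the second. An end high in yAT1254 in both states, such as 1L (3.39 and 2.31), can pull the differences in opposite directions. How far this shapes the overlaps and correlations below was not tested. Of the 17 ends higher in yAT1254 than in the wild type, 5 were also higher in dot1 than in DOT1 cells (7L, 8L, 9L, 16L and 16R), 9 did not pass there and 3 were lower (1L, 10L and 11L). Of the 13 ends higher in dot1, 8 did not pass in yAT1254 (2L, 3L, 6R, 7R, 11R, 12R, 13L and 13R). The 5 shared ends are 29.4% of the 17 and 38.5% of the 13. Over all 1200 windows, 47 were higher in both. They are 24.1% of the 195 higher in yAT1254 and 12.0% of the 391 higher in dot1. The shares of higher windows differ between these ends and the genome, so these percentages do not compare the overlaps directly. The 8 ends had mean differences of 0.10 in yAT1254 and 1.58 in dot1, and the 3 ends that moved oppositely had 2.57 and -1.65. Over the 31 ends Pearson's r between the differences was -0.58 and Spearman's rho -0.51, and without 3L, 3R and 7L they were -0.61 and -0.53. Over all 1200 windows Pearson's r was -0.35. These are descriptions over ends of the same arrays, and a missed threshold does not show that an end did not change. The end 9L, higher in both comparisons, read 0.77 and 0.34 in the wild type, 2.19 and 1.86 in yAT1254, 1.14 and 1.07 after nicotinamide and 2.30 and 2.71 in dot1.

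**Figure D5:**
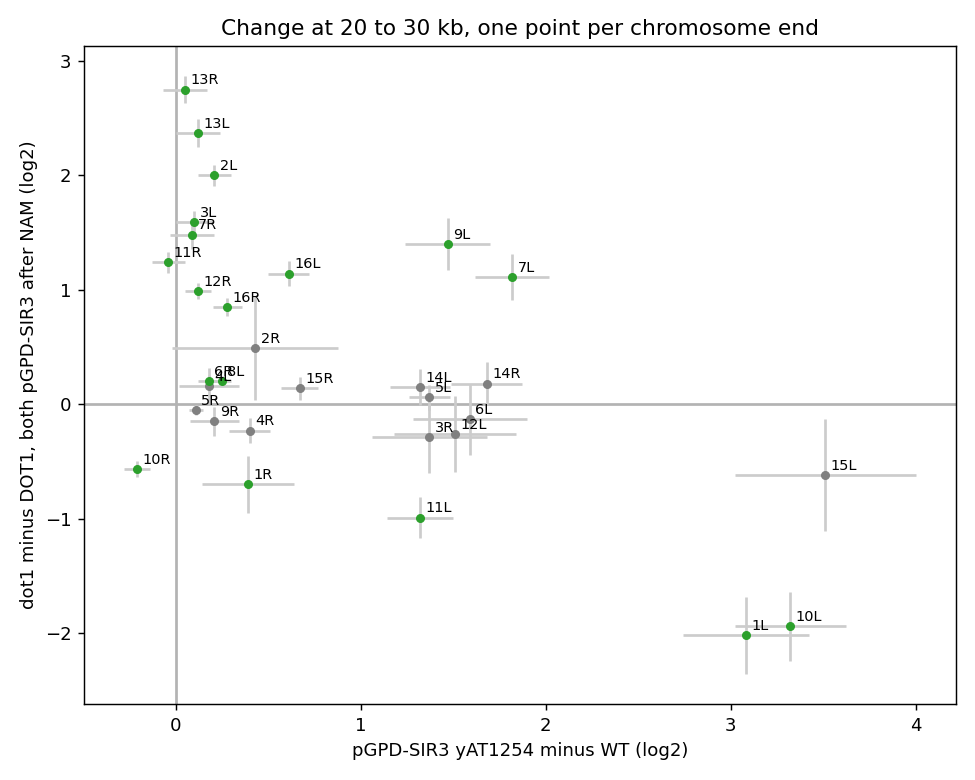
Difference at 20 to 30 kb between yAT1254 and the wild type (horizontal axis, log2) against that between dot1 and DOT1 cells after nicotinamide (vertical axis, log2), with a point per chromosome end for the 31 tested ends. The ends 13R, 13L and 2L sit high near 0 on the horizontal axis, and 1L and 10L lie at the lower right with differences above 3 and near -2.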

How the data were processed

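Sir3 ChIP-chip values were taken from 19 deposited 2-colour array tables, 45220 spots each. The deposited values are the authors' ratio of Cy5 over Cy3 signal per probe (Ratio1). Per the file headers, a second column holds a ratio rescaled by the authors, used as an alternative. On 5 arrays the deposited ratio, of the kind recorded as other, held 19 values at or below 0, which were set missing, none of them in the window. The sources used here name no genome build and no image processing. Array medians of the ratio ran from 0.0292 to 0.942. The number of arrays limits the precision.

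Each log2 ratio was centred on its array median. Means over probes measured on all arrays were taken for 1200 windows of 10 kb (at least 3 probes), 3971 genes (at least 2 probes) and 115 steps between neighbouring windows. They were fitted in limma 3.58.1 (R 4.3.3) with 1 mean per group over all 11 groups, with Benjamini-Hochberg adjustment within a comparison at 0.05, after a test on simulated data. Gene names and positions came from RefSeq's current yeast table, and probes were assigned to genes by the coordinates in the probe names. Probes within 100 bp of a gene border were left out of genes. The offset of gene positions, estimated on the A2Q arrays, was within 75 bp on 12 chromosomes. On chromosomes 6, 10, 11 and 12 it was 125, -250, -225 and -125 bp, and the margin was widened on 1 side there. The correlation behind the offset was lowest on chromosome 6 (0.089). Python 3.11.15, numpy 2.4.6, pandas 2.3.3, scipy 1.17.1 and matplotlib 3.10.9 served for tables and plots.

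Named windows are up to 5 largest changes per direction without overlap of arrays, the 5 smallest in yAT1254, and 3L, 3R and 7L. Named genes are up to 8 (4 in later comparisons) per direction, at most 2 per end, and up to 3 per list. Other genes in the text were chosen after their values were seen. Members and lists were chosen with earlier results of these data known. Batches are the deposit and the slide, the latter read from array numbers in file names of the first deposit. In the later deposit, which holds all nicotinamide and dot1 arrays, slide blocks do not rest on slides that were read. Promoter sequences were not used here.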

Additional observations from a re-analysis of the deposited data

How the results depend on the processing

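Of 2685 values of the named windows and genes under an alternative, 2380 kept direction and side of the threshold, 295 kept direction and no longer passed, 7 newly passed and 3 turned. The 3 were 7L and OCA4 in dot1 against DOT1, with arrays scaled by their internal spread, and BMH1 after nicotinamide with slide as a block. In units of that spread 7L gave -1.21 (1.11 on the log2 scale) and OCA4 -4.22 (0.54 on the log2 scale). BMH1 gave -0.04 for 0.41. The cause was not tested. Counts of windows moved by over 1.5 times in these cases. ADH against the wild type gave 1 for 0 with the slide block. TEF against ADH gave 8 for 13 in the later deposit alone, which holds fewer arrays. A2Q against the wild type gave 1 for 4 without 3L, 3R and 7L, 2 when scaled and 0 with the slide block. SIR2 against the wild type gave 0 for 3 with the median of probes and with the slide block, 6 when scaled and 5 with a variance trend and robust fit. SIR2 and SIR3 against yAT1254 gave 3 for 10 with the slide block and 6 with yAT2476 as reference. Nicotinamide against steady growth gave 5 for 11 with the median of probes, 1 with the deposit block and 0 with the slide block. For genes, ADH gave 1 for 2 when scaled, with the trend and with a replicate block, and 8 with the slide block. A2Q against the wild type gave 0 for 4 genes without 3 ends, 1 when scaled, 2 with the trend and 0 with the slide block. SIR2 gave 0 for 4 in the first deposit alone, and nicotinamide 6 for 24 with the deposit block and 0 with the slide block. Changed steps after nicotinamide numbered 19 for 29 with the median, 7 with the deposit block and 3 with the slide block.

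The labels do not say that replicate numbers mark pairs. Same-numbered arrays correlated in their deviations from -0.60 (nicotinamide and yAT1254) to 0.59 (SIR2 with SIR3 and yAT1254), with 0.55 for TEF and ADH, whose numbers coincide with the deposit, and 0.54 for dot1 and nicotinamide. With a replicate block no other count moved by over 1.5 times (16 for 17 windows and 30 for 28 genes in yAT1254, 61 for 62 genes in dot1).

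Leaving out an array in turn gave 0 to 0 windows for ADH, 12 to 14 for TEF, 13 to 17 for yAT1254, 10 to 12 for TEF against ADH, 0 to 0 for yAT2554 against TEF, 1 to 3 for A2Q against the wild type, 17 to 19 for A2Q against yAT1254, 2 to 3 for SIR2, 7 to 12 for SIR2 and SIR3, 1 to 9 after nicotinamide and 15 to 17 for dot1. For genes, in the same order, it gave 1 to 7, 21 to 38, 19 to 40, 17 to 19, 0 to 0, 0 to 8, 26 to 29, 6 to 8, 12 to 26, 2 to 9 and 46 to 54. Changed steps numbered 33 to 38 for TEF, 32 to 36 for yAT1254, 9 to 25 after nicotinamide and 31 to 35 for dot1. With 1 array left, that array is assumed to vary like the other groups.

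Scaled to units of internal spread, the mean over ends was 0.86 in the wild type, 1.08 with ADH, 3.46 with TEF, 3.41 in yAT2554, 3.78 in yAT1254, 1.68 with SIR2, 4.09 with SIR2 and SIR3, 3.27 in yAT2476, 0.15 with A2Q, 2.55 after nicotinamide and 1.99 in dot1, so dot1 then lay below the other nicotinamide group. With the median of probes it was 1.11 in yAT1254, 0.02 with A2Q and 0.68 after nicotinamide, and with the authors' rescaled ratio 0.03 with A2Q. Without 3L, 3R and 7L it was 0.19 in the wild type, 0.21 with ADH, 1.05 in yAT1254, 0.58 after nicotinamide and 0.87 in dot1. At 2 scaled deviations the covered bins numbered 58.5 in the wild type, 63 with ADH, 134.5 with TEF, 139 in yAT2554, 146.5 in yAT1254, 125 with SIR2, 133 in yAT2476, 17 with A2Q, 104 after nicotinamide and 136.5 in dot1. At 4 they numbered 16.5 in the wild type, 27.5 with ADH, 95 with TEF, 101 in yAT2554, 96.5 in yAT1254 and 44 with SIR2. They numbered 116 with SIR2 and SIR3, 95 in yAT2476, 4 with A2Q, 61.5 after nicotinamide and 66 in dot1. Ends with few probes (1R, 1L, 15L) rest on less data.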
